A study of Mus musculus with 9 samples.

Results

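The genes described here are 10 markers of neural progenitors and early neurons, Sox1, Pax6, Pax3, Zic1, Dbx1, Nes, Fabp7, Ncam1, Tubb3 and Dcx, out of 18193 genes measured. They were taken by name, and all 29 probe sets that the array annotation pairs with 1 of these symbols alone were used. RNA of undifferentiated E14 mouse embryonic stem cells (ESCs) was hybridized to 4 Affymetrix mouse expression arrays, labelled ES2, ES6, ES8 and ES10. RNA of embryoid bodies, the aggregates in which ESCs differentiate, was hybridized to 5 more, labelled EB1, EB3, EB5, EB7 and EB9. Both groups come from the 1 line, untreated, and the labels give no genotype and neither the age nor the culture of the embryoid bodies. The methods call the ESC arrays biological replicates, whereas nothing states that the embryoid body arrays came from separate cultures, so P values may measure only technical spread. Values are log2 of the deposited GCRMA intensity, an array signal per probe set after background subtraction, and 1 unit is a 2-fold difference.

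In the embryo, neural progenitors arise from the ectoderm and are marked by Sox1, a SoxB1 transcription factor that appears early in the neural plate. Regional factors then divide the neural tube, with Pax3 and Zic1 marking its dorsal side and Dbx1 progenitors of the intermediate spinal cord. Pax6 marks progenitors of the eye, forebrain and ventral spinal cord. Progenitors carry the intermediate filament protein nestin (Nes) and, as radial glia, the brain lipid-binding protein Fabp7, and their daughter neurons switch on the tubulin Tubb3 and the microtubule-binding protein Dcx. Ncam1, a cell adhesion molecule of neurons, is also made by muscle and other cells, as is nestin.

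Promoter sequences are shown for the 3 genes with the greatest difference between groups at their brightest probe set, among those with an entry. They are the 250 bases before the RefSeq transcription start, build GRCm38.p6, 5′ to 3′ on the strand of the gene, with CpG dinucleotides in capitals. Zic1 is at chr9:91365769-91366018 (minus strand), Fabp7 at chr10:57784673-57784922 (plus strand) and Dbx1 at chr7:49636836-49637085 (minus strand).
Zic1: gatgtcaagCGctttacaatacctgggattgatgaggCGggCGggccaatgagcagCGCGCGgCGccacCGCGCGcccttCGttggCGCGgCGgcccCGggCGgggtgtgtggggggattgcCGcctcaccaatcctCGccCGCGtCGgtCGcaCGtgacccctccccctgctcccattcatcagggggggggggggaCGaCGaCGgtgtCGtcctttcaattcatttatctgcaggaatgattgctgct
Fabp7: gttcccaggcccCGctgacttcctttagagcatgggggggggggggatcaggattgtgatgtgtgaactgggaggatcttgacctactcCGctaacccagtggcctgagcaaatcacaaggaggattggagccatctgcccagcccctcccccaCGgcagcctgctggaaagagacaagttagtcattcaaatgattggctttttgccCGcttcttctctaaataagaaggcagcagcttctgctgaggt
Dbx1: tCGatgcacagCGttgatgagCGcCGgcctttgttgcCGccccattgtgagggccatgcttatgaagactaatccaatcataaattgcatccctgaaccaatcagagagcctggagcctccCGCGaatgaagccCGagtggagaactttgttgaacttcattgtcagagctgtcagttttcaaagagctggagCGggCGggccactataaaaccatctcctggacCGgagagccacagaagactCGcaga

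These stretches hold 27 CpGs for Zic1, 12 for Dbx1 and 4 for Fabp7. Over the whole RefSeq window, which runs on for 50 bases past the start, the observed over expected CpG ratio was 0.969 for Zic1, 0.687 for Dbx1 and 0.276 for Fabp7, against a median of 0.384 over 32851 windows of 300 bases. Of the 10 genes, 8 were matched to 10 windows by symbol, and Pax3 and Ncam1 had no entry. The ratio was highest for Sox1, at 1.068, which 97.0% of all windows lay below, and lowest for the pair of Dcx windows, at 0.219 and 0.201. Both strands were searched for a Sox motif (ACAATG), the octamer bound by POU factors (ATGCAAAT), an E-box (CAGCTG) and a TATA box (TATAAA). The Sox motif was in the Dbx1 and Tubb3 windows (12.6% of all windows), the octamer in that of Sox1 (1.74%), the TATA box in those of Dbx1 and Dcx (13.6%) and the E-box in none (16.3%). These matches are descriptions of the letters only.

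The arrays of a group were alike, with Pearson r across probe sets of 0.995 to 0.998 between ESC arrays, 0.997 to 0.999 between embryoid body arrays and 0.968 to 0.977 between groups. Within each group the arrays formed pairs or triplets, and in both groups the arrays with the highest label numbers stood together. EB7 and EB9 correlated at 0.9984 with each other and at 0.9966 to 0.9975 with EB1, EB3 and EB5, and ES8 and ES10 at 0.9976 with each other and at 0.9953 to 0.9958 with ES2 and ES6. The labels name no batch, so the fits were also run without each of these sets, a choice made after the data were seen. Most pluripotency markers followed the labels. At an adjusted p under 0.05 (limma), 8 of 10 were lower in embryoid bodies, where 14.7% of all genes were. Tbx3 was higher, by 0.75, and Esrrb did not pass the threshold. Of the muscle markers, 6 of 11 were higher, where 15.7% of all genes were, led by Myl7, an atrial myosin light chain. Control probe sets at the 3′ and 5′ ends of Gapdh differed by -0.04 to 0.05 on all arrays, and those of Actb by 0.55 to 0.72.

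**Figure D1:**
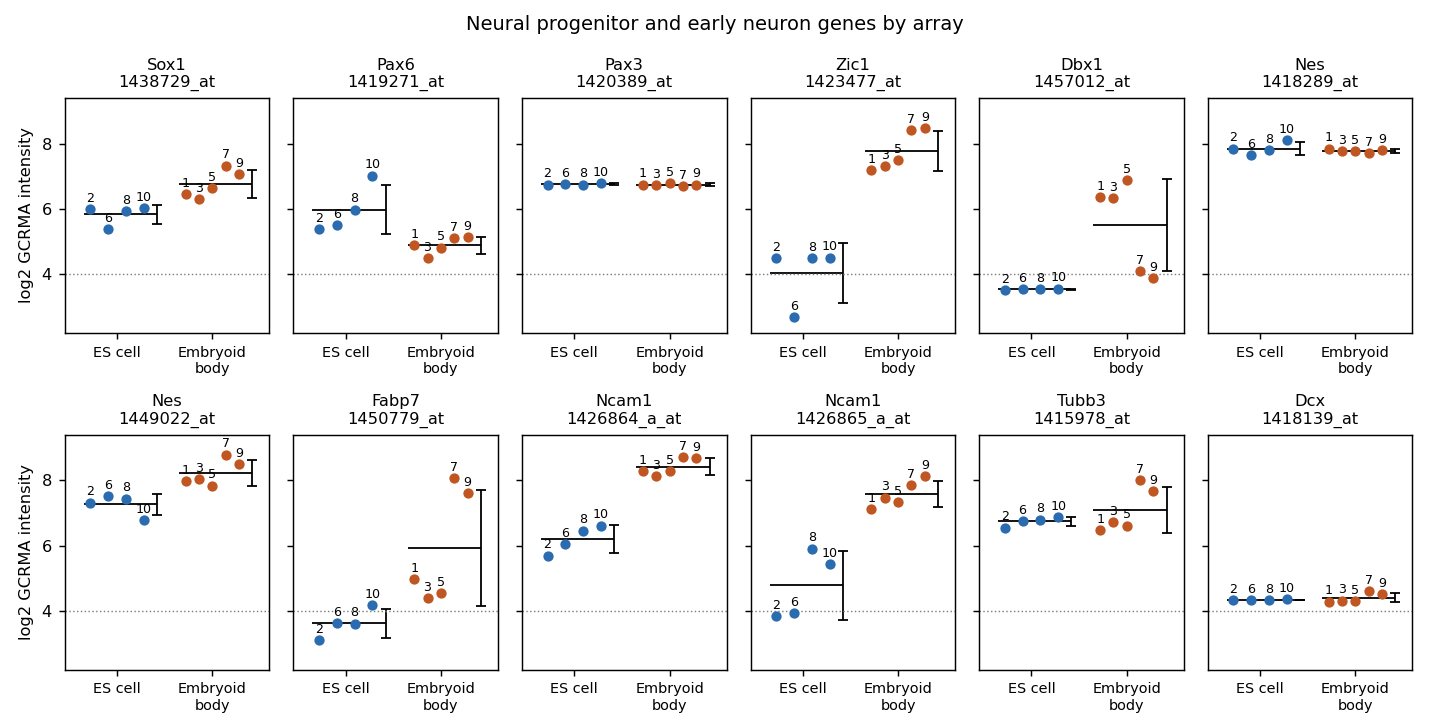
Log2 GCRMA intensity (vertical axis) of 12 probe sets of the 10 genes on each ESC array (blue) and embryoid body array (orange), with the array's number above each point. Horizontal lines are group means, bars beside them the SD (n = 4 and n = 5 arrays), and the dotted line is log2 4. Zic1 and Ncam1 separate the groups, and Fabp7 and Dbx1 vary most among embryoid body arrays.

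The genes did not move as a group. At the brightest probe set of each gene, Zic1, Ncam1 and Sox1 were higher in embryoid bodies at an adjusted p under 0.05 (limma, over all 45037 probe sets), Pax6 was lower, and the other 6 were not called. This is 3 of 10 higher, where 15.7% of all genes were, and 1 of 10 lower, where 14.7% were. The groups did not overlap for 5 genes with embryoid bodies above (15.6% of all genes) and for 1 with embryoid bodies below (19.4%). The median difference was 0.64 over the 10 genes and -0.04 over all genes. In bulk RNA, fewer cells of a kind and less RNA per cell cannot be told apart.

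Of the 29 probe sets, 14 lay below log2 4 on all 9 arrays, a level near the floor of GCRMA that 49.1 to 49.9% of probe sets per array did not reach. These 14 differed by -0.07 to 0.03 between groups and none was called, with 7 at an unadjusted p under 0.05 (limma). They belong to Ncam1 (4 of 7 probe sets), Pax6 (4 of 5), Dcx (3 of 4), and Sox1, Pax3 and Nes (1 each). Of the 15 others, 6 were called higher, where 19.5% of such probe sets were on the whole array, and 1 lower, where 18.5% were. The groups did not overlap at 8 of the 15 with embryoid bodies above (19.3% of such probe sets) and at 1 with them below (22.5%). The calls higher fell to Zic1 and Ncam1 (2 probe sets each), Sox1 and Nes. Some of the 15 repeated a value to 4 decimals on different arrays. Pax3 1420389_at read 6.7482 on EB1, ES2, ES8 and EB9, and Pax3 1441743_at read 5.1552 on ES2, EB3 and ES6. Nes 1418289_at read 7.7936 on ES8 and EB9. Ncam1 1439556_at read 4.9873 on ES2 and ES6, and Dcx 1418139_at 4.3361 on ES6 and ES8. Whether these probe sets read RNA above background was not tested.

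**Figure D2:**
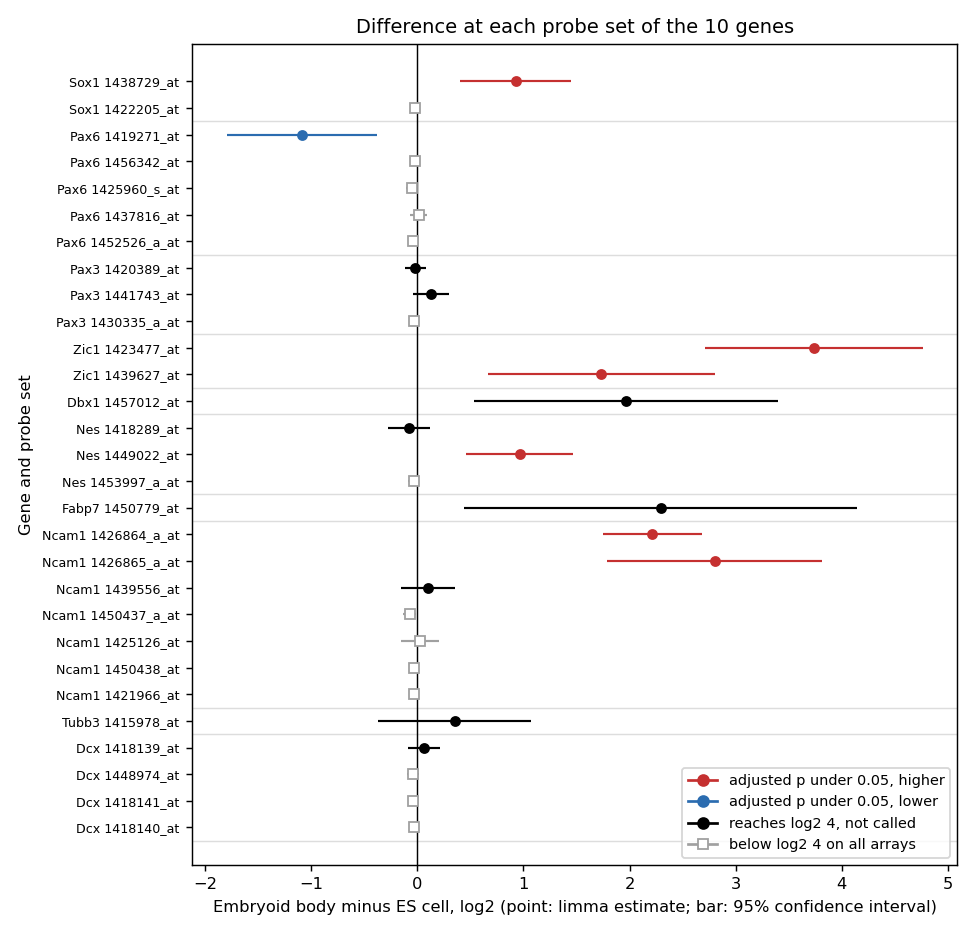
Embryoid body minus ESC difference in log2 intensity (horizontal axis) at each of the 29 probe sets (vertical axis), as the limma estimate with its 95% confidence interval. Red points were called higher, the blue one lower, black ones were not called, and open squares lay below log2 4 on all arrays. The Fabp7 and Dbx1 intervals are the widest not called, and Zic1 has the largest difference, 3.73.

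Among the transcription factors, Zic1, a zinc finger factor of the dorsal neural tube and somites, rose most. Its brighter probe set, 1423477_at, read 4.49, 2.68, 4.49 and 4.51 on ES2, ES6, ES8 and ES10. It read 7.18, 7.31, 7.51, 8.41 and 8.48 on EB1, EB3, EB5, EB7 and EB9. All embryoid body arrays lay above all ESC arrays, and EB7 and EB9 were the highest. The difference was 3.73 ± 0.45 (SE; 13.3-fold, adjusted p = 0.000259, exact two-sided permutation test, p = 0.00794, the smallest that 126 assignments allow).

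The dimmer Zic1 probe set, 1439627_at, stayed at 2.73 to 2.83 on the ESC arrays. It read 2.89, 4.25, 4.59, 5.71 and 5.02 on EB1, EB3, EB5, EB7 and EB9, so that EB1 lay just above the ESC arrays. The ESC values lay near the floor, and the difference of 1.73 ± 0.47 (adjusted p = 0.0283) was 0.83 with an offset of 16. It lost its call when any of ES2, ES6, ES8, ES10 or EB5 was left out, with adjusted p of 0.0604 to 0.0634, and at 0.0739 without both EB7 and EB9.

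Sox1, the SoxB1 factor of the neural plate, rose less. Probe set 1438729_at read 5.98, 5.38, 5.94 and 6.02 on ES2, ES6, ES8 and ES10, and 6.45, 6.29, 6.64, 7.33 and 7.07 on EB1, EB3, EB5, EB7 and EB9. The groups did not overlap, but the gap between ES10 and EB3 was small. The difference was 0.93 ± 0.23 (1.9-fold, adjusted p = 0.018, exact permutation p = 0.0159). Without EB7 and EB9 it was 0.63 at an adjusted p of 0.0517, without ES8 and ES10 it was 1.07 at 0.0513, and without ES2 and ES6 it was 0.78 at 0.108.

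Pax6, the paired box factor of eye and forebrain, was the only one of the 10 genes called lower in embryoid bodies. Probe set 1419271_at read 5.39, 5.51, 5.98 and 7.02 on ES2, ES6, ES8 and ES10, and 4.89, 4.50, 4.82, 5.10 and 5.14 on EB1, EB3, EB5, EB7 and EB9. ES10 stood highest and the ESC arrays spread over 1.63, against 0.64 in embryoid bodies. The difference was -1.09 ± 0.31 (2.12-fold lower, adjusted p = 0.0363, exact permutation p = 0.00794). Leaving out EB1, EB3, EB5, EB7 or ES8 took the adjusted p to 0.0577 to 0.0842, and without ES8 and ES10 the difference was -0.56 at 0.0615. Without EB1, EB3 and EB5 together it was -0.86 at 0.336, and without EB7 and EB9 it was -1.24 at 0.0709. Without ES2 and ES6 it was -1.61 at 0.00613. The other 4 Pax6 probe sets lay near the floor on every array.

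Dbx1, a homeobox gene of intermediate spinal cord progenitors, was high on some embryoid body arrays and near the floor on others. Its single probe set, 1457012_at, read 3.53 to 3.56 on the 4 ESC arrays. It read 6.35, 6.33 and 6.87 on EB1, EB3 and EB5, and 4.09 and 3.89 on EB7 and EB9. All 5 embryoid body arrays lay above the ESC arrays, with a 7.91-fold range among them. The difference of 1.97 ± 0.63 missed the threshold (95% interval 0.54 to 3.40, adjusted p = 0.0567, exact permutation p = 0.0556). Without EB7 it was 2.32 at an adjusted p of 0.0263, without EB9 2.37 at 0.0169, and without both 2.98 at 1.81e-05, whereas without EB1, EB3 and EB5 it was 0.45 at 0.00504. With an offset of 16 added to each intensity it was 1.26, since the ESC arrays lay below log2 4, near the floor.

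Pax3, the paired box factor of dorsal neural tube, neural crest and muscle progenitors, was nearly level. Probe set 1420389_at read 6.75, 6.75, 6.75 and 6.79 on the ESC arrays and 6.69 to 6.80 on the embryoid body arrays, a range of 0.11. The difference was -0.02 (95% interval -0.11 to 0.08, adjusted p = 0.743). Probe set 1441743_at read 4.98 to 5.16 in ESCs and 5.14 to 5.45 in embryoid bodies, with a difference of 0.13 (-0.04 to 0.30, adjusted p = 0.167). Whether these Pax3 levels lie above background was not tested.

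Of the progenitor proteins, nestin gave different answers at its probe sets. Probe set 1449022_at read 7.32, 7.52, 7.44 and 6.79 on ES2, ES6, ES8 and ES10, and 7.98, 8.04, 7.84, 8.78 and 8.51 on EB1, EB3, EB5, EB7 and EB9. The groups did not overlap, and the difference was 0.96 ± 0.22 (1.95-fold, adjusted p = 0.0127, exact permutation p = 0.00794). It lost its call only without both ES8 and ES10, at 0.81 and an adjusted p of 0.0787, or under a minimum fold of 2. The probe set with the slightly higher mean, 1418289_at, read 7.64 to 8.11 in ESCs and 7.70 to 7.85 in embryoid bodies. It differed by -0.07 (95% interval -0.27 to 0.12, adjusted p = 0.489), and which part of the transcript each one reads was not analysed here. Thus Nes counted as not called by the rule that takes the brightest probe set, and as higher at an adjusted p of 0.00824 when its probe sets were averaged.

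Fabp7, the lipid-binding protein of radial glia, had the widest spread of any gene among embryoid body arrays. Probe set 1450779_at read 3.10, 3.62, 3.62 and 4.18 on ES2, ES6, ES8 and ES10. It read 4.98, 4.38 and 4.56 on EB1, EB3 and EB5, and 8.07 and 7.62 on EB7 and EB9. All embryoid body arrays lay above the ESC arrays, EB3 by a small margin. The SD of 1.78 in embryoid bodies was exceeded by 0 of 12133 genes that reached log2 4 there, and that of Dbx1, 1.40, by 1. Most ESC values lay near the floor, so the size of the difference depends on how low values are treated. The difference of 2.29 ± 0.82, which was 1.56 with an offset of 16, was not called (95% interval 0.44 to 4.14, adjusted p = 0.0765, exact permutation p = 0.0317). With probe sets tested only where at least 4 arrays reached log2 4, the adjusted p was 0.0491. Without EB7 and EB9 the difference was 1.01 at an adjusted p of 0.0391, and without EB1, EB3 and EB5 it was 4.22 at 0.000734.

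Ncam1, the neural cell adhesion molecule, rose clearly. Probe set 1426864_a_at read 5.69, 6.04, 6.46 and 6.62 on ES2, ES6, ES8 and ES10, and 8.28, 8.13, 8.29, 8.71 and 8.68 on EB1, EB3, EB5, EB7 and EB9. The difference was 2.22 ± 0.20 (4.65-fold, adjusted p = 4.72e-05, exact permutation p = 0.00794), and it kept its call under every alternative that holds this probe set. Probe set 1426865_a_at read 3.85, 3.93, 5.91 and 5.44 in the same order of ESC arrays, and 7.12 to 8.14 in embryoid bodies, with a difference of 2.80 ± 0.45 (6.96-fold, adjusted p = 0.00147). Here ES8 and ES10 lay well above ES2 and ES6, yet below every embryoid body array. The third Ncam1 probe set above log2 4, 1439556_at, differed by 0.10 (95% interval -0.15 to 0.36, adjusted p = 0.451) at levels of 4.93 to 5.43. With plain _at probe sets only, Ncam1 was not called.

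Nestin and Ncam1 are also made outside the nervous system, and the levels of markers of other cell types are given here. The summed linear intensity of the 11 muscle markers was 355 to 622 on the ESC arrays and 12740 to 15150 on the embryoid body arrays, with 6 of 11 called higher. Tnnt2, cardiac troponin T, and Myl7 reached 11.20 to 11.64 and 11.28 to 11.56, whereas the skeletal muscle factors Myod1, Myf5 and Myog lay below log2 4 on all arrays. The 9 mesenchyme markers summed to 401 to 955 in ESCs and 10550 to 11570 in embryoid bodies (7 of 9 higher). The sums for ES2, ES6, ES8 and ES10 were 445, 401, 955 and 932, with the same arrays high as for Ncam1. The 8 endothelial markers summed to 186 to 198 and 340 to 417 (5 of 8 higher, with Pecam1 below log2 4 throughout). The 10 visceral endoderm markers summed to 179 to 236 and 426 to 565 (3 of 10 higher, with Apoa1, Apob, Amn, Cubn and Hnf4a below log2 4). Of all genes, 15.7% were called higher. The part of these markers in the Nes and Ncam1 differences was not tested.

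Neither early neuron gene was called different between groups. Tubb3, the neuronal beta-tubulin, read 6.55, 6.76, 6.80 and 6.87 on ES2, ES6, ES8 and ES10 at probe set 1415978_at. It read 6.48, 6.71 and 6.61 on EB1, EB3 and EB5, and 8.01 and 7.67 on EB7 and EB9. EB1, EB3 and EB5 lay within or below the ESC range, and EB7 and EB9 above it. The difference was 0.35 ± 0.32 (95% interval -0.37 to 1.08, adjusted p = 0.371, exact permutation p = 0.421). Without EB1, EB3 and EB5 it was 1.098 at an adjusted p of 0.00421, and without EB7 and EB9 it was -0.14 at 0.245.

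Dcx, the microtubule-binding protein of migrating neurons, had 1 of 4 probe sets above log2 4. Probe set 1418139_at read 4.34, 4.34, 4.34 and 4.35 on the ESC arrays, and 4.29, 4.32, 4.31, 4.60 and 4.51 on EB1, EB3, EB5, EB7 and EB9. The departures were small, and again EB7 and EB9 were the highest. The difference was 0.06 (95% interval -0.09 to 0.22, adjusted p = 0.44).

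**Figure D3:**
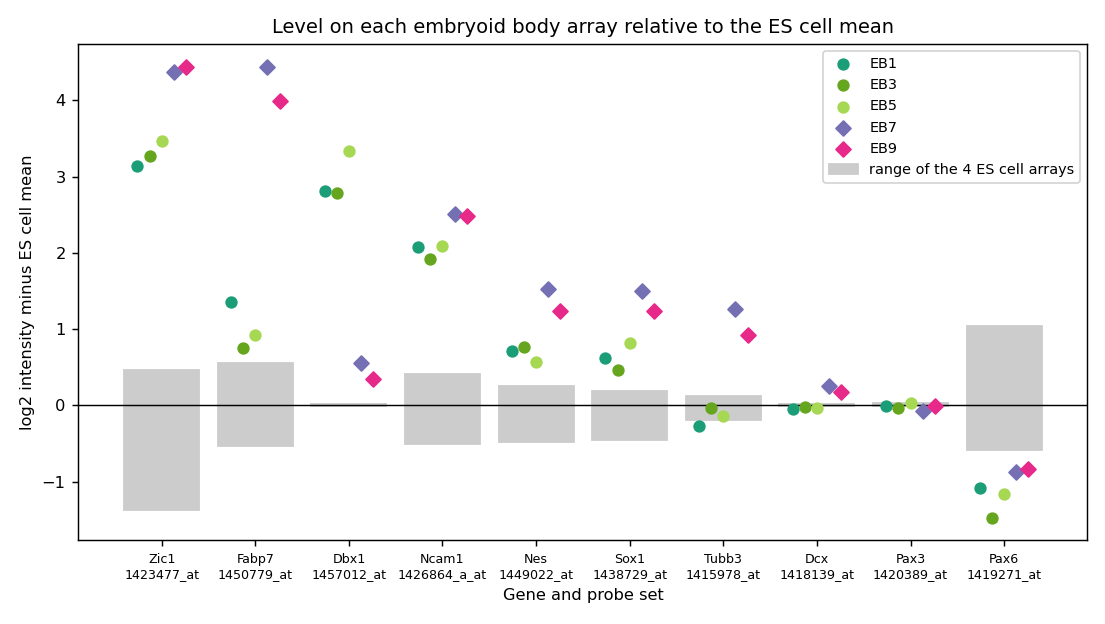
Log2 intensity on each embryoid body array minus the mean of the ESC arrays (vertical axis) for 1 probe set of each of the 10 genes (horizontal axis), with circles for EB1, EB3 and EB5, diamonds for EB7 and EB9, and grey bars for the range of the 4 ESC arrays. The diamonds lie above the circles by at least 0.5 for Fabp7, Zic1 and Tubb3, and by less for Ncam1, Nes (1449022_at), Sox1, Pax6 and Dcx. They lie below the circles for Dbx1, whose values were 4.09 and 3.89 against 6.33 to 6.87. Where a gene had called probe sets, the brightest of these is shown, and otherwise the brightest of all. At the brightest Nes probe set, 1418289_at, which is not shown, neither order held.

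The order of the embryoid body arrays was shared by most of the genes. At the brightest probe set, EB7 and EB9 were both above the other 3 for 7 of the 10 genes, which held for 21.2% of the 12405 genes that reached log2 4 on an array. They were above by at least 0.5 for Zic1, Fabp7 and Tubb3 (0.983% of all genes) and below by at least 0.5 for Dbx1 (0.742%). Since the genes were chosen with results of these arrays known, the counts are a description and no test was made. The labels do not say how these arrays differ. The summed intensity of the 10 pluripotency markers was 5502, 6142 and 4765 on EB1, EB3 and EB5, and 3461 and 2790 on EB7 and EB9, against 35190 to 37440 in ESCs. Whether that bears on the neural genes was not tested.

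Other neural genes with the same order, named after their values were seen, were found in 6 lists of neural genes. Of their 76 members that reached log2 4 on an array, 11 had EB7 and EB9 above the other 3 by at least 0.5 (14.5%), and 1 had them below (1.32%). Nefm, a neurofilament subunit, read 4.09, 3.68 and 4.12 on EB1, EB3 and EB5, and 6.71 and 6.26 on EB7 and EB9. Gap43, a growth cone protein, read 5.39, 5.54 and 5.74, and 7.11 and 7.21. Pou3f3, a POU factor of neural progenitors, read 7.14, 7.27 and 7.27, and 8.52 and 8.97. None of these 3 differed between groups at the threshold (adjusted p = 0.274, 0.0797 and 0.097). The other members were Ina, Nefl, Crmp1, Dpysl3, Irx3, Plagl1, Ptn and Tnc. The one with the opposite order was Otx2, a homeobox gene of epiblast, forebrain and midbrain, at 8.71, 8.61 and 8.57 on EB1, EB3 and EB5, and 7.60 and 7.62 on EB7 and EB9. The ESC arrays also differed for some of these genes. On ES2, ES6, ES8 and ES10, Otx2 read 8.24, 8.37, 6.85 and 7.01, and Gap43 3.55, 4.56, 5.47 and 5.43. Nefm read 5.67, 5.44, 6.17 and 6.11 there, and Pou3f3 7.07, 6.39, 7.04 and 7.10. Whether the splits within the groups are related was not tested.

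The nearest profiles were sought among 8879 or 8880 genes with a mean of at least 6. Over the 9 arrays Zic1 was closest to Tspan12, a tetraspanin (Pearson r = 0.99), and Ncam1 to Lbh (r = 0.996), but 389 and 661 genes passed 0.95 with these, since any gene that separates the groups correlates with them. Tubb3 was closest to another beta-tubulin gene, Tubb2b (r = 0.99), and Dcx to Tubb3 (r = 0.99), each with 3 genes past 0.95. Whether the probes of the tubulin genes bind each other's RNA was not tested. Fabp7 was closest to Ctnnd2, a catenin of neurons (r = 0.98), with 6 genes past 0.95. Sox1 was closest to Ifnar1 (r = 0.98), Pax6 to Prdm10 (r = 0.97), Pax3 to Scrn3 (r = 0.98) and Nes to Casp14 (r = 0.96). Over the 5 embryoid body arrays alone, the closest were Nr2f2 for Zic1, Ttyh3 for Fabp7, Crabp2 for Tubb3, C330018D20Rik for Ncam1, Sh3glb1 for Dcx, Cops8 for Sox1, Ephx3 for Pax6, Taok1 for Pax3 and Armcx3 for Nes, all at r of 0.99 or more. With 5 points drawn from the same arrays, such values are a description only.

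Other neural genes were counted in 6 lists, each to be read against the 15.7% of all genes called higher and the 14.7% called lower. Differences between the lists were not tested. Of 14 radial glia and neural stem cell genes, 9 were called higher and 1 lower, with a median difference of 1.19 against -0.04 over all genes. The growth factor Ptn went from 4.82 ± 0.14 to 10.92 ± 0.56 (SD, n = 4 and n = 5 arrays), tenascin C (Tnc) from 3.67 ± 0.79 to 8.19 ± 0.66, N-cadherin (Cdh2) from 7.60 ± 0.58 to 11.75 ± 0.12 and the zinc finger gene Plagl1 from 5.09 ± 0.72 to 7.56 ± 0.54. Each of these 4 passed the test, and Glul, glutamine synthetase, was the one that fell, by 0.55. The 4 not called were Slc1a3 (-0.03), Ptprz1 (-0.05), Dll1 (0.05) and Prom1 (0.35), at adjusted p of 0.14 to 0.62 (limma). Cdh2 and Tnc are also made in heart or mesenchyme, and the part of the markers given above was not tested.

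Of 31 other neural progenitor transcription factors (35 listed), 2 were called higher, 3 lower and 26 not, with a median of -0.03. Irx3, an Iroquois factor, rose from 3.26 ± 0.31 to 7.89 ± 0.49, and Hes1, a target of Notch signalling, from 6.33 ± 0.21 to 8.36 ± 0.16. Pou3f1, a POU factor of the epiblast and of neural cells, fell from 9.69 ± 0.35 to 6.53 ± 0.41, Zic5 fell by 1.40 and Sox2, the SoxB1 factor of both ESCs and neural progenitors, fell by 1.38. Of these 31 genes, 13 lay below log2 4 on all arrays.

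Of 27 genes of neuron differentiation and structure (29 listed), 1 was called higher and 6 lower, with a median of -0.03. Dpysl3, a protein of growing axons, rose from 7.01 ± 0.27 to 9.25 ± 0.46. The genes that fell were led by alpha-internexin (Ina), from 9.08 ± 0.27 to 5.95 ± 0.79, Stmn2, a stathmin of growth cones, from 11.45 ± 0.12 to 8.80 ± 0.17, and the neurofilament gene Nefl, from 10.66 ± 0.07 to 8.07 ± 0.61. Map2, Mapt, Rbfox3 and Elavl4, markers of maturing neurons, lay below log2 4 on all arrays.

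Of 15 synapse and transmitter genes (16 listed), Vamp2, a vesicle protein, was called higher and Gad1, the enzyme of GABA synthesis, lower, with a median of -0.07. Of 9 glial genes (10 listed), the myelin gene Mbp was called higher, from 6.78 ± 0.15 to 7.36 ± 0.16, and none lower, with a median of -0.06. Of 12 neural crest genes, 5 were called higher and 2 lower, with a median of 0.12. Twist1 rose by 3.18, Snai2 by 3.13, Ets1 by 2.77 and Msx2 by 1.67, and all 4 are also expressed in mesenchyme. Erbb3 fell by 1.39 and Foxd3, which lay below log2 4 on all arrays, fell by 1.34, and Sox10 differed by 0.04 (adjusted p = 0.54).

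**Figure D4:**
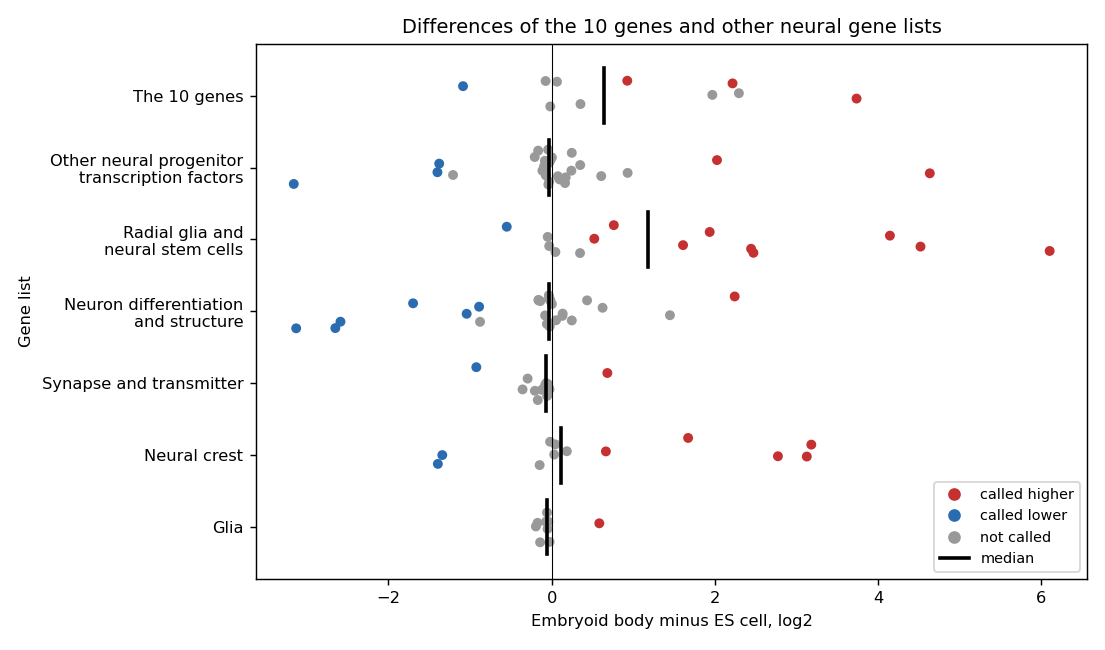
Embryoid body minus ESC difference in log2 intensity (horizontal axis) of each gene in the set of 10 and in 6 lists of neural genes (vertical axis), with red points called higher, blue called lower, grey not called, and a black bar at the median. The radial glia list has the highest median, 1.19, and the list of neuron genes holds the most genes called lower, 6.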

How the data were processed

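Expression was measured with Affymetrix mouse expression arrays in 4 ESC and 5 embryoid body samples. The authors deposited GCRMA intensities per probe set on a linear scale, and whether the 9 arrays were processed in 1 run is not given in the sources used here. Precision is set by the number of arrays, since an array has no depth. The log2 of each intensity was taken without further normalization, and 64 of 45101 probe sets were left out as controls. Symbols came from the platform annotation, and a gene was represented by the probe set of highest mean over all arrays.

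Groups were compared by limma (version 3.58.1, R 4.3.3; eBayes with trend and robust) over 45037 probe sets with Benjamini-Hochberg adjustment and a threshold of 0.05, after a check on simulated data. Single probe sets were also given an exact two-sided permutation test. Alternatives were quantile normalization, median centring, an offset of 16, no trend or robust step, array weights, a filter at log2 4 on at least 4 arrays, a fold of at least 2, plain _at probe sets, the mean over probe sets, and each array left out.

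The members, and the 13 other lists of neural genes, relatives of the 10 genes, REST complex subunits and markers of other cells, were chosen with earlier results of these data known. Named genes were all members with every probe set, up to 4 called genes of greatest difference per list, and the nearest profile of each member that reached log2 4 on all arrays of a group. Promoter windows came from RefSeq (GRCm38.p6).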

Additional observations from a re-analysis of the deposited data

Results flagged for a closer look

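Of 30 sets of 4 or 5 arrays (15 probe sets in 2 groups), 7 had an array far from the rest by Dixon's test at its 95% critical values, which by chance flags about 1 group in 20. All 7 were ESC sets. ES6 stood low for Zic1 at 1423477_at, with 2.68 against 4.49 to 4.51, and for Sox1 at 1438729_at, with 5.38 against 5.94 to 6.02. ES10 stood apart in the other 5, at 6.79 for Pax3 1420389_at, 4.98 for Pax3 1441743_at, 2.83 for Zic1 1439627_at, 5.07 for Ncam1 1439556_at and 4.35 for Dcx 1418139_at. Apart from Zic1 1423477_at, where the ESC arrays ranged over 1.84, and Sox1, the ESC arrays of these sets ranged over 0.18 or less. ES10 also had the highest median of all arrays, 4.09.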

How the results depend on the processing

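Zic1 at 1423477_at and both called Ncam1 probe sets kept their direction and call under every alternative that could test them, at 2.81 to 3.93, 1.99 to 2.35 and 2.19 to 3.18 over those planned. The number of members called higher was 3. It was 4 with quantile normalization or an offset of 16 (Nes added) and with array weights (Dbx1 added). With the filter at log2 4 (Dbx1 and Fabp7 added) or the mean over probe sets (Dbx1 and Nes added) it was 5. Only Zic1 and Ncam1 were called higher at a fold of at least 2, and only Sox1 and Zic1 with plain _at probe sets. Leaving out any 1 ESC array added Nes, and leaving out EB7 or EB9 alone added Dbx1. Apart from the mean over probe sets, the additions of Nes come from 1449022_at, which was also called with all arrays. The other bright Nes probe set, 1418289_at, was called under no alternative (limma, adjusted p of 0.181 or more). The number called lower, which is Pax6, was 1, and 0 to 1 with single arrays left out. Sox1 and Nes 1449022_at lost their call at a minimum fold of 2, and Zic1 1439627_at with an offset of 16 (0.83, adjusted p = 0.0503). Among all genes, 2863 were called higher and 2666 lower, 1069 and 661 at a fold of at least 2, and 5109 lower with array weights, while 2342 to 4823 were called lower with single arrays left out (the most without EB9). In fits added after seeing the data, members called lower were 0 without EB7 and EB9, without EB1, EB3 and EB5, and without ES8 and ES10, and members called higher were 7 without EB1, EB3 and EB5 (Dbx1, Dcx, Fabp7 and Tubb3 added). Signs turned for differences not called with all arrays, at Nes 1418289_at without ES10 (0.012) and without ES8 and ES10 (0.027), and without EB7 and EB9 for Tubb3 (-0.14) and Dcx (-0.036). Among the list counts, all of 10 or fewer, array weights moved 7 and a fold of at least 2 moved 9 by over 1.5 times. Causes were not tested. No paired analysis was made, because the groups share no replicate numbers and the labels name no pairs. A term for the split that sets EB7, EB9, ES8 and ES10 apart was not fitted. Signal over background limits the 14 probe sets below log2 4 on all arrays, near the GCRMA floor, and 1.89% of such probe sets on the whole array were called. Whether it also limits the probe sets above log2 4 that repeated a value on different arrays was not tested.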

Other observations

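Relatives of the 10 genes did not share their differences as a rule. Of 32 family members measured (34 listed), 3 were called higher and 5 lower, where 15.7% and 14.7% of all genes were. Their median difference was -0.05, and 13 lay below log2 4 on all arrays. Of the 3 called higher, Vim rose most, from 12.38 ± 0.74 to 13.98 ± 0.15 (SD, n = 4 and n = 5 arrays). Among fatty acid-binding proteins Fabp5 rose from 11.51 ± 0.16 to 12.46 ± 0.11 (SD, n = 4 and n = 5 arrays) and Fabp3 fell from 10.16 ± 0.68 to 8.48 ± 0.25. Among beta-tubulins Tubb2a rose by 0.72 and Tubb4b fell by 1.01, and Tubb2b differed by 0.19 (adjusted p = 0.326). Of the SoxB1 factors, Sox1 rose and Sox2 fell, and Sox3 differed by -0.08 (adjusted p = 0.488).

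Of 8 subunits of the REST complex, a repressor of neuronal genes outside neurons, 2 were called higher and 3 lower. The shares of all genes were 15.7% and 14.7%. Rest itself fell from 10.22 ± 0.04 in ESCs to 9.04 ± 0.11 in embryoid bodies, Sin3a fell by 0.54 and Hdac1 fell by 0.51, and Rcor1 rose by 0.79 and Hdac2 by 0.60.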
